A study of Homo sapiens with 9 samples.

Results

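The genes described here had their highest level in embryoid bodies, above both the cells the embryoid bodies were made from and the cells grown out of them. They were chosen from the authors' deposited log2 values, with each gene represented by the named probe of highest mean over the 9 arrays. A gene was taken if its embryoid body mean lay at least 0.6 above the progenitor mean and at least 0.6 above the hESC mean, and if all 3 embryoid body arrays lay above the 6 others. This held for 194 of 11991 genes, which is 1.62%. The differences of embryoid bodies from either other group therefore chose the genes, and they are given below as a description without a test. A difference of 1 on the log2 scale is 2-fold.

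All samples derive from H9, an established line of human embryonic stem cells (hESC), and the labels name no genetic change in any group. Embryoid bodies were made from H9 cells released from the feeder layer and kept in suspension with 40 nM BMP4, and were taken apart on day 6. Perivascular progenitors were the cells of such day 6 embryoid bodies that adhered to collagen in EGM2-MV, an endothelial growth medium, and were passaged. The hESC were grown on mouse embryonic fibroblasts with 4 ng/ml bFGF. Each group has 3 arrays from total RNA on Illumina human BeadChips. The labels name 1 cell line and do not say whether the 3 arrays of a group came from separate cultures, so p-values measure only the spread between these arrays, which may be technical.

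Embryoid bodies are floating aggregates in which pluripotent cells start to differentiate into several cell types at once. BMP4 is a secreted factor that activates SMAD proteins, induces ID genes directly, and in human pluripotent cells is known to favour mesoderm and extraembryonic fates such as amnion and trophoblast. An RNA that peaks in the aggregate may come from all its cells or from a few, and in these bulk samples fewer cells of a type and less RNA per cell cannot be told apart.

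The arrays detected 17964 to 21172 probes each. Embryoid bodies still carried the RNA of undifferentiated cells. POU5F1, the core pluripotency factor, read 13.22, 13.21 and 13.28 in embryoid bodies, against 7.12, 7.22 and 6.94 in progenitors and 12.84, 12.94 and 12.85 in hESC. The progenitors carried PDGFRB, a receptor of mural cells, which read 7.16, 7.58 and 7.56 in embryoid bodies, against 11.87, 12.30 and 11.84 in progenitors and 8.25, 8.09 and 8.13 in hESC. Of the other arrays, hESC 3 and progenitor 2 stood apart from their groups. hESC 3 differed at least 2-fold from hESC 1 in 445 genes and from hESC 2 in 426, while hESC 1 and 2 differed so in 2 genes. NANOG, a pluripotency factor, read 11.29, 11.25 and 7.0 on the 3 hESC arrays, so hESC 3 went against its label for this gene while keeping POU5F1. Progenitor 2 differed so in 657 genes from progenitor 1 and in 600 from progenitor 3, against 29 between progenitors 1 and 3. Embryoid body arrays differed so in 6 to 44 genes.

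These 2 arrays touch the gene set itself. hESC 3 lay at least 0.6 from the mean of hESC 1 and 2 in 34 of the 194 members, 17.5%, against 5.60% of all genes, with 15 above and 19 below. Progenitor 2 lay as far from progenitors 1 and 3 in 23 members, 11.9%, against 8.29% of all genes. Without hESC 3 the rule found 220 genes, of which 170 were among the 194. Without progenitor 2 it found 195, with 189 shared, and without both arrays 218, with 166 shared. What part these arrays play in each value was not tested, and members described below that the rule loses without one of them are marked so.

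The 194 members were all detected (detection p under 0.05) on all 3 embryoid body arrays. In progenitors 115 were detected on all 3 arrays and 63 on none, and in hESC 177 were detected on all 3 arrays and 1 on none. No member was detected in embryoid bodies alone. The margin, the embryoid body mean minus the higher of the other 2 group means, had a median of 0.79 and ran from 0.60 to 2.47. It was at least 1 in 50 members. The higher of the other 2 groups was hESC for 167 members and progenitors for 27. The median difference of members was 1.52 for embryoid bodies minus progenitors and 0.82 for embryoid bodies minus hESC, against 0.00 and −0.01 over all genes. The median SD of a member over the 3 arrays was 0.06 in embryoid bodies, 0.10 in progenitors and 0.18 in hESC, against 0.06, 0.11 and 0.11 over all genes.

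The edge of the set is not a gap in the data. UGT3A1, DOCK2 and CA14 came in with margins of 0.6007, 0.6016 and 0.6039 (UGT3A1 is lost without hESC 3), and PROCR, ALPG and GRB7 stayed out with 0.5996, 0.5964 and 0.5942. GAS7, C1orf54 and SMC6 had the smallest gaps between the lowest embryoid body array and the highest other array, 0.0029, 0.0182 and 0.0376. NANOG, AFP and MIX23 passed both differences but overlapped, with gaps of −0.02, −0.15 and −0.17. For NANOG and MIX23 the hESC mean was low through hESC 3 alone, and for AFP hESC 3 read 10.36 against 8.81 and 8.82 in hESC 1 and 2.

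Promoter sequence is shown first for kinds of members that recur below, the metallothioneins and genes of amino acid stress. Promoters were found in the RefSeq table (GRCh38.p14) for 150 of the 194 members and 9685 of the 11991 genes, and the 250 bases before the start were searched on both strands. Metallothioneins are small proteins that bind zinc and copper, and their genes are known targets of the metal sensor MTF1, which binds metal response elements with the core TGCACNC or TGCGCNC. MT1H and MT1X are members and MT2A is not. The capitals mark each core match, on either strand, in the last 220 bases before the start of MT1H (chr16:56669594-56669813 on the plus strand), MT1X (chr16:56682250-56682469 on the plus strand) and MT2A (chr16:56608364-56608583 on the plus strand).
MT1H: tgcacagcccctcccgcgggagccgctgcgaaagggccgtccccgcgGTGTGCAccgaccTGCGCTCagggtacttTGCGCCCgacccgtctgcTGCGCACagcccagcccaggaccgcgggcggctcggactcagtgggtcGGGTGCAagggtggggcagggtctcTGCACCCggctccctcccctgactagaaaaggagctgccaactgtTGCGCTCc
MT1X: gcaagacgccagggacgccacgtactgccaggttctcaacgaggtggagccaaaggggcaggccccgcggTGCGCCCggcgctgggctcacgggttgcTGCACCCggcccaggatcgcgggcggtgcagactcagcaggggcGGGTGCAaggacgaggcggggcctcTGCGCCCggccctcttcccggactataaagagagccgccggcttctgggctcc
MT2A: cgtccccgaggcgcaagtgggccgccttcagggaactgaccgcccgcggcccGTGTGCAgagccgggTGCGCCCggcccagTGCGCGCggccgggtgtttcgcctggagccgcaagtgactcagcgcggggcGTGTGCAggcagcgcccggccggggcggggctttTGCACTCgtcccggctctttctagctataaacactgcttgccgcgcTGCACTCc
The whole 250 bases held 8 core matches in MT1H, 4 in MT1X and 7 in MT2A. At least 1 match stood in 22.7% of member promoters, against 33.2% of all promoters, and 4 or more in 1.33% (MT1H and MT1X), against 0.527%. The motif is thus dense in the promoters of MT1H, MT1X and MT2A and not more frequent among members at large. Promoters of MT1F, MT1G and MT1E were not found in the RefSeq table and so were not searched. A match is a string of letters and no evidence that a factor binds there.

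The second motif is TGATGNAA, the element at which ATF4 with CEBP or related partners is known to act when amino acids run short. Matches stood in 6 member promoters (HRK, CALCA, ASNS, PJA1, M6PR and C1orf54), 4.0%, against 146 of all promoters, 1.51%. ASNS, asparagine synthetase, holds the textbook example of this element, and HRK had the third largest margin of all members. Capitals mark the match in the 160 bases before the start of ASNS (chr7:97872409-97872568 on the minus strand) and HRK (chr12:116881442-116881601 on the minus strand).
ASNS: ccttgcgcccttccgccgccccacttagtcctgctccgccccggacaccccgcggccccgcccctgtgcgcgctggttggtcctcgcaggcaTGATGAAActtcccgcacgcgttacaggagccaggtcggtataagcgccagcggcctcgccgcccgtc
HRK: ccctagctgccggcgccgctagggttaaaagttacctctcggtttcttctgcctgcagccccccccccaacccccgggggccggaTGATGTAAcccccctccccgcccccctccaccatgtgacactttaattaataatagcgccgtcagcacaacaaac
The promoter of ATF5 held no match in this window, and that of INHBE was not among the promoters found, so it was not searched. HRK is on the list of BCL2 family genes and not on that of stress genes. The core promoter string TATAAA stood in 12 member promoters, 8.0%, against 5.76% of all, and among them were those of TFAP2A (chr6:10419660-10419779 on the minus strand) and ID1 (chr20:31605169-31605288 on the plus strand), both described below. In ID1 the capitals cover 2 overlapping matches on opposite strands.
TFAP2A: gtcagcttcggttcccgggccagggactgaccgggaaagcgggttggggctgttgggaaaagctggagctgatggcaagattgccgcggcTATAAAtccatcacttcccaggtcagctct
ID1: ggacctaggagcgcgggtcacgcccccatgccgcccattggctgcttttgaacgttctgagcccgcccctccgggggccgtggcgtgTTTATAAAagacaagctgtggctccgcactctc
The AP-2 motif GCCNNNGGC stood in 26.7% of member promoters, against 27.4% of all. The median GC content was 64.2% in member promoters, against 64.8% in all, and the median number of CpG was 16, against 21.

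Of the secreted proteins of yolk sac and liver, 4 of the 11 genes in the table were members. APOA2 had the largest margin of all members. With APOA1 it forms the main protein of high-density lipoprotein, and both are made by visceral yolk sac endoderm before the liver takes over. APOA2 read 10.09, 10.12 and 10.06 in embryoid bodies, against 7.38, 7.32 and 7.34 in progenitors and 7.67, 7.77 and 7.41 in hESC. Its mean was 10.09 ± 0.03 in embryoid bodies, 7.35 ± 0.03 in progenitors and 7.62 ± 0.18 in hESC (SD, n = 3 each). It was not detected on any progenitor array, and on the background-corrected scale described below embryoid bodies were at least 14.4-fold higher. APOA1 read 10.50, 10.38 and 10.27 in embryoid bodies, against 7.48, 7.68 and 7.44 in progenitors and 9.39, 9.27 and 7.80 in hESC. hESC 3 thus lay far below hESC 1 and 2 for APOA1, and embryoid bodies lay above every other array, as the rule requires. FGB, the beta chain of fibrinogen, read 8.31, 8.35 and 8.27 in embryoid bodies, against 7.60, 7.33 and 7.37 in progenitors and 6.89, 6.79 and 7.09 in hESC and was not detected in hESC. APOE, a lipid carrier, read 13.58, 13.64 and 13.52 in embryoid bodies, against 11.02, 12.12 and 11.02 in progenitors and 12.94, 12.90 and 13.06 in hESC, a margin of only 0.61. Of the 7 list genes that are not members, none was called different between embryoid bodies and hESC, a comparison that called 3.09% of all genes. Beside AFP, an early fetal plasma protein, TDO2, a tryptophan-degrading liver enzyme, read 7.27, 7.48 and 7.23 in embryoid bodies, against 10.07, 11.77 and 10.06 in progenitors and 7.14, 7.08 and 7.13 in hESC. None of the 7 tested endoderm transcription factors was a member.

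Markers of amnion and surface ectoderm gave 3 members of 13 genes tested, and 2 of them are the genes the set is known by. GABRP, the pi subunit of the GABA-A receptor and an amnion marker, read 8.82, 8.98 and 8.79 in embryoid bodies, against 7.41, 7.36 and 7.38 in progenitors and 7.72, 7.63 and 7.72 in hESC. Its mean was 8.86 ± 0.10 in embryoid bodies, 7.38 ± 0.03 in progenitors and 7.69 ± 0.05 in hESC (SD, n = 3 each). It was detected on no progenitor array and was at least 5.16-fold higher in embryoid bodies. ISL1, a LIM homeodomain factor of amnion and cardiac progenitors, read 9.92, 9.97 and 9.83 in embryoid bodies, against 8.06, 8.71 and 8.02 in progenitors and 8.43, 8.19 and 8.01 in hESC. The 2 other groups overlapped for ISL1, with progenitor 2 the highest of the 6. TFAP2A, the AP-2 factor of surface ectoderm, trophoblast and neural crest, read 9.52, 9.61 and 9.65 in embryoid bodies, against 8.31, 7.86 and 8.34 in progenitors and 8.25, 8.23 and 7.21 in hESC. Here the progenitors and hESC 1 and 2 overlapped and hESC 3 lay about 1 log2 unit below them.

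The remaining 10 genes of that list did not peak in the same way. EPAS1, a hypoxia-inducible factor, read 9.70, 9.79 and 9.79 in embryoid bodies, against 12.64, 12.89 and 12.60 in progenitors and 7.70, 7.61 and 7.79 in hESC, so it was highest in progenitors. IGFBP3, HEY1, DLX3, GATA2 and EPAS1 were called higher in embryoid bodies than in hESC, 5 of the 10, in a comparison that called 1.5% of all genes higher and 1.59% lower, 3.09% in all (limma, adjusted p under 0.05 and at least 2-fold). EPAS1 differed most (embryoid bodies minus hESC, log2 3.09, SE 0.12, limma adjusted p = 7e-06). When near-identical arrays were averaged, no gene at all was called between embryoid bodies and hESC. These shares and this limit apply to every call of this comparison given below. On background-corrected values this list's summed intensity was 8086 to 8403 in embryoid bodies, 62310 to 88668 in progenitors and 4108 to 5634 in hESC. Such a sum is weighted to the brightest genes and does not describe the list as a whole. In progenitors 5 of the 13 genes were not detected on any array. Against hESC 5 were called higher in progenitors and 4 lower, with a median log2 difference of 0.42. MSX2 was the list's gene not detected on any embryoid body array.

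Further lists share members with it. HAND1, a helix-loop-helix factor of extraembryonic and lateral plate mesoderm, read 10.89, 11.06 and 10.99 in embryoid bodies, against 7.52, 9.27 and 7.51 in progenitors and 10.67, 10.81 and 8.84 in hESC. Embryoid bodies lay close above hESC 1 and 2, and without hESC 3 the margin was 0.24, so HAND1 is a member only through that array. The trophoblast list, with 16 genes tested, held TFAP2A and HAND1, and the lateral plate and cardiac list, with 19, held ISL1 and HAND1. Among the 18 neural crest genes TFAP2A and ID1 were members.

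ID1, an inhibitor of helix-loop-helix factors and a direct BMP target, was the one member among 21 BMP targets and feedback genes. It read 12.96, 13.05 and 13.05 in embryoid bodies, against 10.85, 11.24 and 10.97 in progenitors and 11.48, 11.55 and 12.15 in hESC. All 3 embryoid body arrays lay above the others, as the rule requires, and hESC 3 was the nearest of the others. A second, dimmer probe for ID1 read 8.27, 8.33 and 8.40 in embryoid bodies, against 7.76, 7.89 and 7.74 in progenitors and 7.69, 7.79 and 8.41 in hESC, where hESC 3 reached the embryoid body level. Of the other 20 genes 3 were called higher in embryoid bodies than in hESC (DLX3, HEY1 and GATA2) and 2 lower (BMP2 and BMPR2).

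The Notch pathway gave a ligand and a pair of nuclear repressors, 3 members of 28 genes tested. DLL1, a ligand, read 9.61, 9.60 and 9.60 in embryoid bodies, against 7.60, 7.54 and 7.52 in progenitors and 8.47, 8.35 and 7.90 in hESC. HES4, a helix-loop-helix repressor downstream of Notch, read 11.62, 11.55 and 11.44 in embryoid bodies, against 10.46, 10.20 and 10.59 in progenitors and 10.10, 10.06 and 9.95 in hESC. HEY2, a related repressor known from heart and vessels, read 11.95, 11.90 and 11.87 in embryoid bodies, against 7.01, 7.01 and 6.98 in progenitors and 10.83, 10.80 and 11.37 in hESC. The 3 genes differ in their order outside embryoid bodies: HES4 was next highest in progenitors, while HEY2 was close below embryoid bodies in hESC and not detected in progenitors. The receptor NOTCH1 read 10.41, 10.31 and 10.30 in embryoid bodies, against 9.91, 10.19 and 10.02 in progenitors and 10.48, 10.44 and 10.17 in hESC, with overlapping embryoid body and hESC arrays. HEY1 was the only other gene of the list called between embryoid bodies and hESC (embryoid bodies minus hESC, log2 1.24, SE 0.15, limma adjusted p = 0.00129).

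The integrated stress response is the program by which ATF4 raises amino acid synthesis and stress genes. It gave 3 members of 40 genes tested, and in INHBE and ATF5 the progenitor mean came next after embryoid bodies. INHBE, a subunit of the activin family, read 10.82, 10.76 and 10.86 in embryoid bodies, against 10.07, 9.69 and 10.00 in progenitors and 8.95, 8.94 and 9.51 in hESC. ATF5, a leucine zipper factor of this response, read 10.97, 11.08 and 10.97 in embryoid bodies, against 10.31, 9.93 and 10.27 in progenitors and 9.19, 9.34 and 9.70 in hESC. ASNS read 13.48, 13.44 and 13.38 in embryoid bodies, against 12.86, 12.12 and 12.84 in progenitors and 12.45, 12.50 and 12.72 in hESC. Its progenitor and hESC means lay close together, at 12.61 and 12.56. A second ASNS probe had them in the opposite order, at 10.62 in progenitors and 10.68 in hESC. ASNS is a member only with progenitor 2, whose value was lower than in progenitors 1 and 3. Of the 37 list genes that are not members, DDIT3, CHAC1, TRIB3, GDF15 and TXNIP were called higher in embryoid bodies than in hESC and none lower. Over all genes 1.5% were called higher and 1.59% lower, and with near-identical arrays averaged none was. DDIT3, the factor CHOP, read 10.15, 10.13 and 9.95 in embryoid bodies, against 11.10, 10.27 and 11.05 in progenitors and 7.94, 7.91 and 7.74 in hESC (embryoid bodies minus hESC, log2 3.09, SE 0.23, limma adjusted p = 0.000153). These 5 genes had their highest mean in progenitors. None of the 20 tested chaperones of the unfolded protein response was a member.

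HRK, a BH3-only activator of cell death that is kept low in most cells, was the one member of 19 BCL2 family genes. It read 9.95, 9.93 and 9.85 in embryoid bodies, against 7.22, 7.24 and 7.26 in progenitors and 7.97, 7.89 and 8.39 in hESC. It was detected on no progenitor array, and embryoid bodies were at least 12.6-fold higher than progenitors. None of the other 18 genes was called between embryoid bodies and hESC. Only 3.09% of all genes were called there, so this count does not set HRK apart.

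Some genes of undifferentiated cells lay above the hESC level too. UTF1, a chromatin protein of pluripotent cells, read 10.49, 10.49 and 10.65 in embryoid bodies, against 7.02, 6.95 and 6.84 in progenitors and 9.37, 9.41 and 9.52 in hESC. DPPA2, a chromatin factor of early embryo and germ cells, read 10.07, 10.10 and 9.97 in embryoid bodies, against 7.27, 7.16 and 7.30 in progenitors and 9.10, 9.14 and 9.86 in hESC, with hESC 3 close under embryoid bodies. They were the 2 members among 24 pluripotency genes, of which 5 others were called lower in embryoid bodies than in hESC (GDF3, GAL, NODAL, LEFTY1 and LEFTY2) and none higher. On background-corrected values the list's summed intensity was 184099 to 185506 in embryoid bodies, 7012 to 8510 in progenitors and 196264 to 227539 in hESC. PRSS8, the epithelial protease prostasin, was the one member of 18 simple epithelial genes and read 11.31, 11.25 and 11.25 in embryoid bodies, against 7.34, 7.33 and 7.36 in progenitors and 10.36, 10.46 and 10.61 in hESC. In all, 19 members stood on one of 24 lists, 175 on none, and 10 lists had no member.

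**Figure D1:**
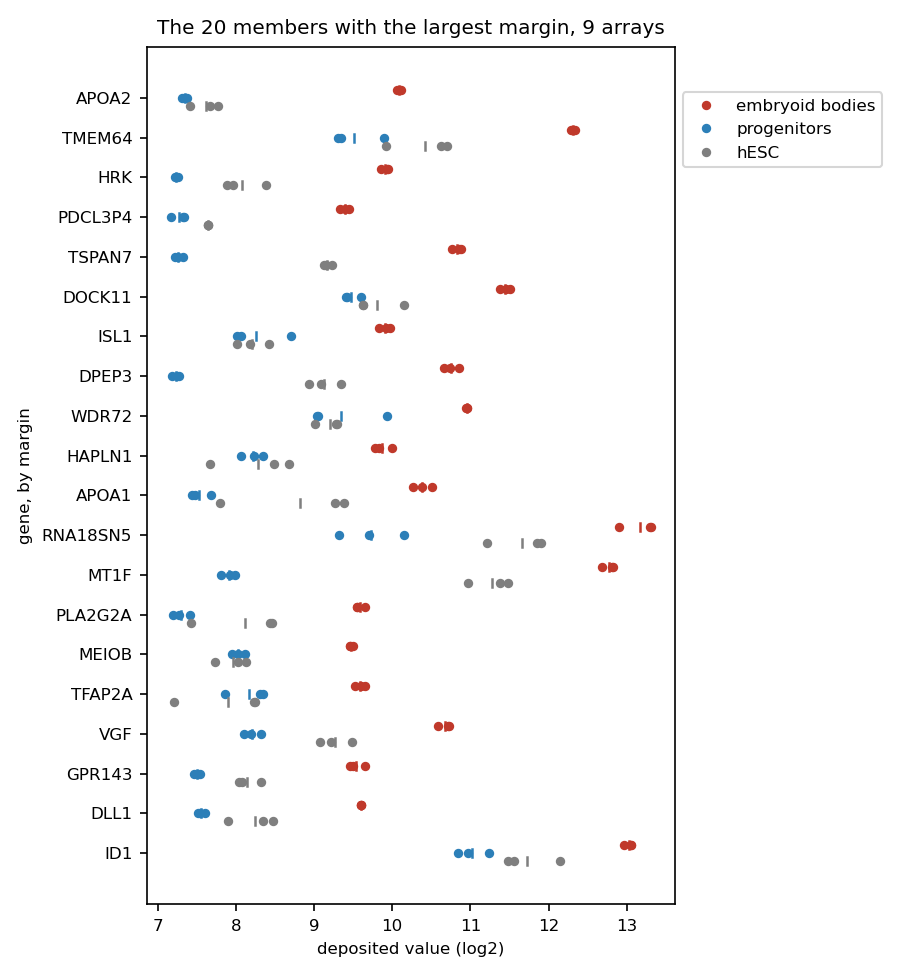
Deposited log2 values (x axis) of the 20 members with the largest margin (y axis, largest on top) on the 3 arrays each of embryoid bodies, progenitors and hESC; points are arrays and short bars are group means. The embryoid body points sit together and, as the rule requires, to the right in every row. The spread is widest among hESC for APOA1, PLA2G2A and TFAP2A.

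The other members with the largest margins have varied roles. TMEM64, a membrane protein, read 12.34, 12.30 and 12.28 in embryoid bodies, against 9.31, 9.89 and 9.34 in progenitors and 10.62, 10.71 and 9.92 in hESC. TSPAN7, a tetraspanin of the cell surface, read 10.88, 10.85 and 10.77 in embryoid bodies, against 7.22, 7.32 and 7.26 in progenitors and 9.15, 9.23 and 9.13 in hESC, so hESC held an intermediate level and progenitors none that was detected. A second probe of each gene met the whole rule, with margins of 1.44 for TMEM64 and 1.43 for TSPAN7. DOCK11, an activator of the small GTPase CDC42, read 11.51, 11.45 and 11.38 in embryoid bodies, against 9.41, 9.60 and 9.42 in progenitors and 9.63, 9.63 and 10.15 in hESC. DPEP3, of the membrane dipeptidases, had the same order as TSPAN7 with 10.85, 10.74 and 10.67 in embryoid bodies, against 7.28, 7.25 and 7.19 in progenitors and 9.08, 8.94 and 9.35 in hESC. WDR72, a protein known from enamel formation, read 10.96, 10.95 and 10.94 in embryoid bodies, against 9.04, 9.93 and 9.05 in progenitors and 9.28, 9.30 and 9.02 in hESC, with progenitor 2 apart from progenitors 1 and 3. HAPLN1, the link protein that ties hyaluronan to proteoglycans, read 10.00, 9.83 and 9.78 in embryoid bodies, against 8.35, 8.07 and 8.23 in progenitors and 8.49, 8.68 and 7.66 in hESC. For HAPLN1 the progenitors and hESC overlapped.

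Several of these genes are known from germ cells, pigment cells or secretions. MEIOB, a single-stranded DNA-binding protein of meiosis, read 9.50, 9.46 and 9.45 in embryoid bodies, against 8.02, 8.12 and 7.96 in progenitors and 8.13, 8.02 and 7.73 in hESC. GPR143, a receptor of pigment granules, read 9.65, 9.50 and 9.46 in embryoid bodies, against 7.47, 7.51 and 7.54 in progenitors and 8.05, 8.08 and 8.32 in hESC. PLA2G2A, a secreted phospholipase, read 9.55, 9.65 and 9.55 in embryoid bodies, against 7.28, 7.20 and 7.41 in progenitors and 8.46, 8.44 and 7.43 in hESC. hESC 3 lay at the progenitor level for PLA2G2A and about 1 unit under hESC 1 and 2. PDCL3P4, a transcribed pseudogene, read 9.39, 9.33 and 9.45 in embryoid bodies, against 7.33, 7.33 and 7.17 in progenitors and 7.65, 7.65 and 7.65 in hESC. A second PDCL3P4 probe did not repeat this and read 7.64, 7.65 and 7.72 in embryoid bodies, against 7.86, 7.59 and 7.68 in progenitors and 7.74, 7.53 and 7.70 in hESC, so the large margin of 1.74 rests on 1 probe.

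Metallothionein genes formed a family among the members. It was picked out after the values had been seen, so its counts describe and support nothing. Of 8 genes of the family and its regulation in the table, MT1F, MT1G, MT1H and MT1X were members, and they neighbour each other on chromosome 16 in the RefSeq annotation. MT1F read 12.69, 12.81 and 12.82 in embryoid bodies, against 7.99, 7.92 and 7.81 in progenitors and 11.38, 11.48 and 10.96 in hESC. MT1G read 13.36, 13.28 and 13.10 in embryoid bodies, against 8.69, 8.57 and 8.81 in progenitors and 12.43, 12.32 and 12.43 in hESC. No array of one group overlapped with another group in either gene. MT1H read 10.99, 11.07 and 10.97 in embryoid bodies, against 7.09, 7.20 and 7.02 in progenitors and 9.74, 9.74 and 10.22 in hESC. MT1X read 11.82, 11.72 and 11.70 in embryoid bodies, against 8.88, 8.93 and 8.99 in progenitors and 10.72, 10.86 and 11.05 in hESC. In all 4 genes hESC came next and progenitors lay far below, with MT1H not detected there. A second, dimmer MT1H probe did not repeat this order. It read 7.51, 7.73 and 7.79 in embryoid bodies, against 7.39, 7.34 and 7.33 in progenitors and 7.15, 7.27 and 7.55 in hESC. On that probe embryoid bodies overlapped with hESC 3, and the progenitor mean was not below the hESC mean. MT1E and MT2A went the other way in progenitors. MT1E read 12.03, 12.06 and 11.66 in embryoid bodies, against 12.72, 12.88 and 12.84 in progenitors and 11.22, 10.88 and 10.70 in hESC. MT2A read 10.30, 10.24 and 10.18 in embryoid bodies, against 14.26, 13.80 and 14.24 in progenitors and 9.38, 9.52 and 8.93 in hESC. Both were thus above hESC in embryoid bodies and highest in progenitors, and both were called higher in embryoid bodies than in hESC (MT1E, log2 1.03, SE 0.16, limma adjusted p = 0.00357; MT2A, log2 1.13, SE 0.20, limma adjusted p = 0.00564). The metal sensor MTF1 and the zinc exporter SLC30A1 were not called in that comparison. Metallothionein transcripts are nearly identical in sequence, so a probe may also bind RNA of a paralog, and how far each value belongs to the named gene alone was not tested.

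**Figure D2:**
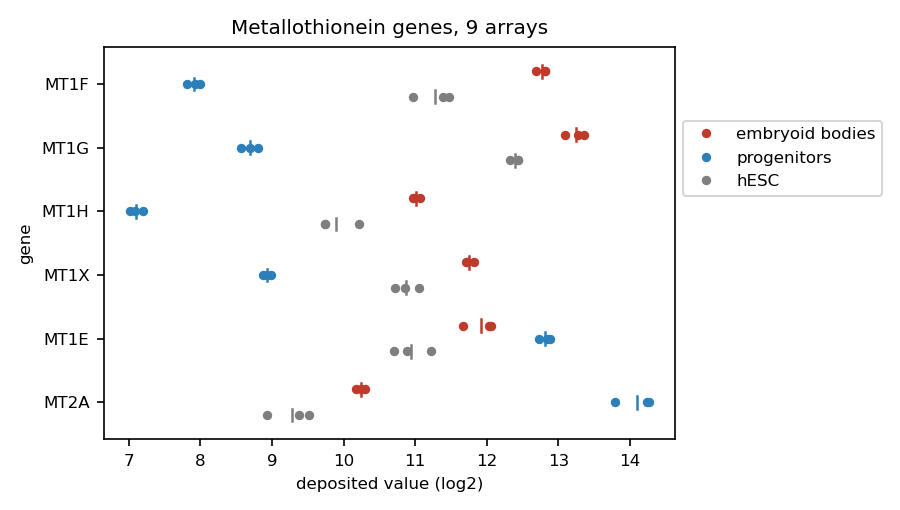
Deposited log2 values (x axis) of 6 metallothionein genes (y axis) on the 9 arrays; points are arrays and short bars are group means. MT1F, MT1G, MT1H and MT1X are highest in embryoid bodies and lowest in progenitors, while MT1E and MT2A are highest in progenitors.

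Neuropeptide and hormone genes made up a second group noticed after the values were seen, with 6 members of 11 genes looked at. VGF, a precursor of secreted peptides in neurons and endocrine cells, read 10.58, 10.73 and 10.71 in embryoid bodies, against 8.20, 8.32 and 8.10 in progenitors and 9.08, 9.22 and 9.48 in hESC. CALCA, which encodes calcitonin and CGRP, read 8.86, 8.99 and 8.85 in embryoid bodies, against 7.44, 7.41 and 7.44 in progenitors and 7.79, 7.88 and 8.22 in hESC. TAC1, the precursor of substance P, read 8.56, 8.55 and 8.50 in embryoid bodies, against 7.24, 7.32 and 7.39 in progenitors and 7.61, 7.73 and 7.84 in hESC. Progenitors were lowest for all 3, and CALCA and TAC1 were not detected there. NMU, neuromedin U, read 11.70, 11.57 and 11.64 in embryoid bodies, against 7.05, 7.17 and 7.16 in progenitors and 10.73, 10.65 and 11.36 in hESC. NPW and SCG5 completed the 6 with margins of 0.76 and 0.71, and without hESC 3 the margin of SCG5 was 0.57, under the rule. GAL, the precursor of galanin, was instead highest in hESC and read 11.16, 11.16 and 11.16 in embryoid bodies, against 8.78, 8.33 and 8.80 in progenitors and 12.83, 12.77 and 13.19 in hESC. The granule proteins CHGA, CHGB, SCG2 and SCG3 were not called between embryoid bodies and hESC. CHGA had its highest mean in embryoid bodies, CHGB and SCG3 in hESC, and SCG2 in progenitors. SCG2 read 7.47, 7.56 and 7.45 in embryoid bodies, against 8.95, 9.47 and 8.94 in progenitors and 6.95, 6.98 and 7.65 in hESC.

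Among the members, 5 are RNAs of the ribosome, the spliceosome and related particles, again noticed afterwards, of 16 such genes in the table. RNA18SN5, the 18S ribosomal RNA, read 13.29, 13.30 and 12.90 in embryoid bodies, against 9.31, 10.15 and 9.71 in progenitors and 11.85, 11.90 and 11.22 in hESC. The 28S ribosomal RNA, RNA28SN5, read 11.91, 11.72 and 11.63 in embryoid bodies, against 11.82, 12.24 and 12.05 in progenitors and 11.12, 10.97 and 11.61 in hESC and was highest in progenitors. RNA5S9, RN7SK, SNORD3C and RNU6-1 were the other members, with margins of 1.00, 0.81, 0.69 and 0.63. Without hESC 3 the margins of RN7SK (0.596) and SNORD3C (0.593) were just under the rule. RN7SL1 read 14.80, 14.92 and 14.98 in embryoid bodies, against 14.93, 15.15 and 14.60 in progenitors and 15.03, 14.99 and 14.72 in hESC, overlapping in all groups. A second RN7SK probe gave a margin of 0.03. These genes exist in many near-identical copies and most of the RNAs carry no poly(A) tail, and a part of the RNA preparation in their values was not tested.

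Glutathione transferases and carbonyl reductases gave 5 members of 18 genes looked at: GSTT2B, GSTT2, GSTO2, CBR1 and CBR3. CBR3 is a member only with progenitor 2, which read 8.01 against 8.80 and 8.78 in progenitors 1 and 3. GSTO2, a transferase of the omega class, read 11.14, 11.10 and 11.11 in embryoid bodies, against 8.68, 9.29 and 8.67 in progenitors and 9.78, 9.73 and 10.57 in hESC. GSTM1, GSTM2 and GSTM3 were higher in progenitors than in either other group. Of 10 MHC class II genes HLA-DRA and HLA-DMB were members. HLA-DRA read 9.03, 9.04 and 9.05 in embryoid bodies, against 7.70, 7.71 and 7.71 in progenitors and 8.28, 8.42 and 8.20 in hESC, while the invariant chain CD74 read 9.20, 9.25 and 9.30 in embryoid bodies, against 8.55, 9.08 and 8.52 in progenitors and 9.17, 9.31 and 9.14 in hESC and did not separate embryoid bodies from hESC. Among the neighbouring pairs in the annotation were also UTF1 with VENTX, GSTT2B with GSTT2 and CBR1 with CBR3. GSTT2B and GSTT2 are near-identical copies, so their values are not independent. By chromosome, 12.9% of members lay on 19, against 7.09% of all genes, 10.3% on 6, against 5.30%, and 8.76% on X, against 3.71%. Protein-coding genes were 94.3% of members and 95.4% of all genes.

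The remaining comparison is progenitors against hESC. It sets the cells grown out of embryoid bodies against the hESC from which these were made. Progenitors are only the cells that adhered and were passaged in another medium. Selection, medium and passage therefore cannot be separated from a change over time. The comparison was tested on the scanner intensities after background correction and quantile normalization (neqc), with limma over all 11991 genes. It is not independent of the rule, which used the same values and capped both groups below the embryoid bodies. On the deposited scale a member can be 2-fold higher in progenitors only if embryoid bodies lie at least 1.6 above hESC, which held for 11 members, and 2-fold lower only if they lie at least 1.6 above progenitors, which held for 92. The counts and medians of members below are therefore a description that the selection largely bounds. A gene was called at an adjusted p under 0.05 and a difference of at least 2-fold, which held for 33.7% of all genes, 14.7% higher and 19.1% lower in progenitors. Of the members 107 were lower in progenitors than in hESC, 55.2%, and 0 were higher. At an unadjusted p under 0.05 there were 144 lower and 6 higher, together 77.3%, close to the 71.0% of all genes that passed it. The median difference was −1.12 for members and −0.07 for all genes, and it was negative in 172 of 194 members, 88.7%, against 53.2% of all genes. On the deposited values, which compress low intensities, 63 members were lower and 0 higher, against 11.3% of all genes lower and 10.6% higher.

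Of the 107 lower members, 57 were not detected on any progenitor array, so their fold is a lower bound, computed against the lowest signal of a detected probe on each array, or the probe's own signal where that was higher. CFAP95, a cilium-associated protein, read 13.24, 13.23 and 13.21 in embryoid bodies, against 7.32, 7.38 and 7.34 in progenitors and 12.73, 12.73 and 11.99 in hESC, and progenitors were at least 83.1-fold lower than hESC (log2 -7.12, SE 0.19, limma adjusted p = 4.97e-09). PRODH, the enzyme that opens proline breakdown, read 11.95, 12.04 and 12.03 in embryoid bodies, against 6.96, 6.68 and 6.76 in progenitors and 11.44, 11.48 and 11.28 in hESC and was at least 38.4-fold lower in progenitors. GPM6B, a membrane glycoprotein of neural cells, read 12.94, 12.98 and 12.94 in embryoid bodies, against 7.47, 7.61 and 7.52 in progenitors and 12.49, 12.42 and 11.66 in hESC (log2 -6.24, SE 0.21, limma adjusted p = 2.07e-08). These 3 genes lay only slightly higher in embryoid bodies than in hESC, and without hESC 3 they miss the rule with margins of 0.50, 0.55 and 0.50. HEY2, described above, was at least 28.6-fold lower in progenitors than in hESC, and NMU at least 26.9-fold.

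The next differences include enzymes and a pigment protein. NMRK2, a kinase of the NAD salvage route, read 11.91, 11.98 and 12.01 in embryoid bodies, against 7.33, 7.39 and 7.29 in progenitors and 10.96, 10.98 and 11.35 in hESC, at least 30.7-fold lower in progenitors. PMEL, the fibril protein of pigment granules, read 12.39, 12.47 and 12.35 in embryoid bodies, against 7.52, 7.62 and 7.42 in progenitors and 11.47, 11.49 and 11.29 in hESC (log2 -5.49, SE 0.15, limma adjusted p = 5.61e-09). IDO1, which degrades tryptophan, was at least 28.3-fold lower (without hESC 3 its margin was 0.54, under the rule), DDX25, a germ cell RNA helicase, at least 14.2-fold and PRSS8 at least 19.4-fold. The 4 metallothionein members were lower as well, MT1H at least 12.4-fold, with log2 differences of -4.40 for MT1F, -4.22 for MT1G and -2.30 for MT1X. MT2A was instead higher in progenitors (log2 5.12, SE 0.20, limma adjusted p = 4.33e-08). For MT1H the dimmer second probe given above did not repeat the lower progenitor level.

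**Figure D3:**
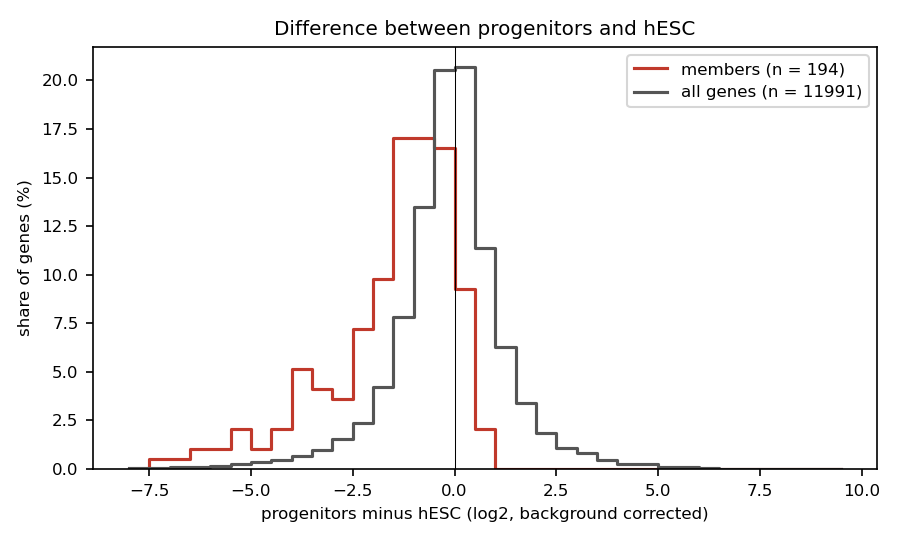
Share of genes (y axis, percent) by the log2 difference of progenitors minus hESC (x axis, background-corrected values, steps of 0.5), for the 194 members and all 11991 genes. The members' line lies left of that of all genes, with medians of −1.12 and −0.07, and the rule caps how high a member can read in either group.

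Among the listed members the difference was not uniform. APOA1 was lower in progenitors than in hESC (log2 -2.37, SE 0.55, limma adjusted p = 0.00403), as were APOE (log2 -1.64, SE 0.27, limma adjusted p = 0.000528), DLL1 (log2 -1.51, SE 0.22, limma adjusted p = 0.000257) and HAND1 (log2 -3.01, SE 0.85, limma adjusted p = 0.0112). HRK was at least 2.22-fold lower and UTF1 at least 8.54-fold. APOA2 was not called (log2 -0.97, SE 0.17, limma adjusted p = 0.000716). GABRP, not detected in progenitors, was at least 1.29-fold lower there (log2 -1.0, SE 0.10, limma adjusted p = 2.81e-05), and the call was lost in 7 of the alternative settings, among them both fits that leave out hESC 3 or progenitor 2. ISL1 did not pass the test (log2 -0.02, SE 0.29, limma adjusted p = 0.962), nor did TFAP2A (log2 0.42, SE 0.49, limma adjusted p = 0.472). On the deposited values DLL1, HRK and GABRP fell short of 2-fold, at -0.69, -0.84 and -0.31, and with near-identical arrays averaged APOA1 and HAND1 were no longer called, at -1.88 and -2.13.

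The 87 members that were not called split into 22 with a positive and 65 with a negative difference, and 39 of them had an adjusted p under 0.05 at less than 2-fold. INHBE (log2 0.92, SE 0.20, limma adjusted p = 0.00249) and ATF5 (log2 0.86, SE 0.17, limma adjusted p = 0.00169) had the largest positive differences and fell short of 2-fold. Without hESC 3 both were called higher in progenitors, INHBE with 1.15 and ATF5 with 1.04, and likewise without progenitor 2, with 1.06 and 1.00. For these 2 stress genes the count of 0 higher members thus depends on the arrays that stand apart. ASNS had no such difference (log2 0.05, SE 0.19, limma adjusted p = 0.848).

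**Figure D4:**
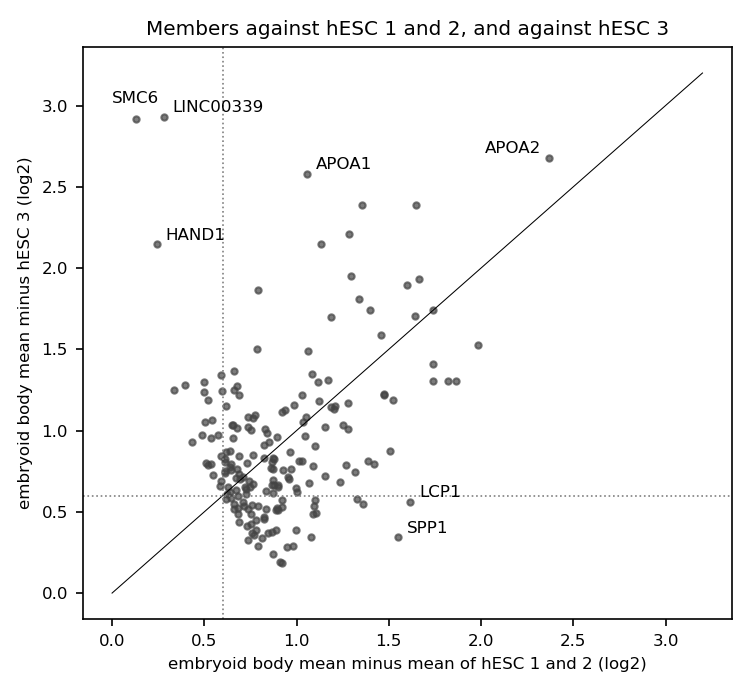
Embryoid body mean minus hESC 3 (y axis, log2) against embryoid body mean minus the mean of hESC 1 and 2 (x axis, log2) for the 194 members, one point each; dotted lines mark 0.6 and the solid line equality. SMC6, LINC00339 and HAND1 stand far above the line, with differences from hESC 1 and 2 under 0.3, and SPP1 and LCP1 stand below it.

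Without hESC 3, 24 members no longer met the rule and 50 other genes did. SMC6, a subunit of a chromosome maintenance complex, read 9.80, 9.69 and 9.71 in embryoid bodies, against 8.54, 8.49 and 8.52 in progenitors and 9.65, 9.55 and 6.82 in hESC. LINC00339, a long noncoding RNA, read 11.15, 11.13 and 11.13 in embryoid bodies, against 9.35, 9.81 and 9.43 in progenitors and 10.91, 10.80 and 8.21 in hESC. In both, hESC 1 and 2 lay just under embryoid bodies and hESC 3 far below. SPP1, the secreted phosphoprotein osteopontin, read 12.77, 12.70 and 12.66 in embryoid bodies, against 9.80, 8.42 and 9.91 in progenitors and 11.14, 11.18 and 12.37 in hESC. LCP1, an actin-bundling protein of blood cells, read 10.13, 10.12 and 10.04 in embryoid bodies, against 8.23, 9.37 and 8.12 in progenitors and 8.52, 8.44 and 9.53 in hESC. For SPP1 and LCP1 hESC 3 lay nearer to embryoid bodies than to hESC 1 and 2. AFP was the gained gene with the largest margin, 1.44 without hESC 3. HAPLN1, APOA1, PLA2G2A, TFAP2A and ID1 remained members with or without that array.

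Other probes of the same genes give a further measurement of the same RNA in the same samples. There were 58 such probes for 50 member genes. On 50 of them, 86.2%, all 3 embryoid body arrays lay above the other 6, against 9.46% of 3543 other probes of genes that are not members. The whole rule was met by 29, 50.0%, against 0.395%. The median margin was 0.61, against −0.19. The rule sorted both sets of genes by another probe on the same samples, so these shares are a description and no independent check. On 56 of the 58 probes embryoid bodies had the highest mean. The exceptions were PDCL3P4, given above, and FER, a tyrosine kinase, whose second probe read 8.48, 8.43 and 8.37 in embryoid bodies, against 8.72, 8.90 and 8.54 in progenitors and 8.26, 8.21 and 8.61 in hESC. The low hESC 3 value of LINC00339 and the high one of SPP1 recurred on other probes, at 7.61 and 11.55.

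**Figure D5:**
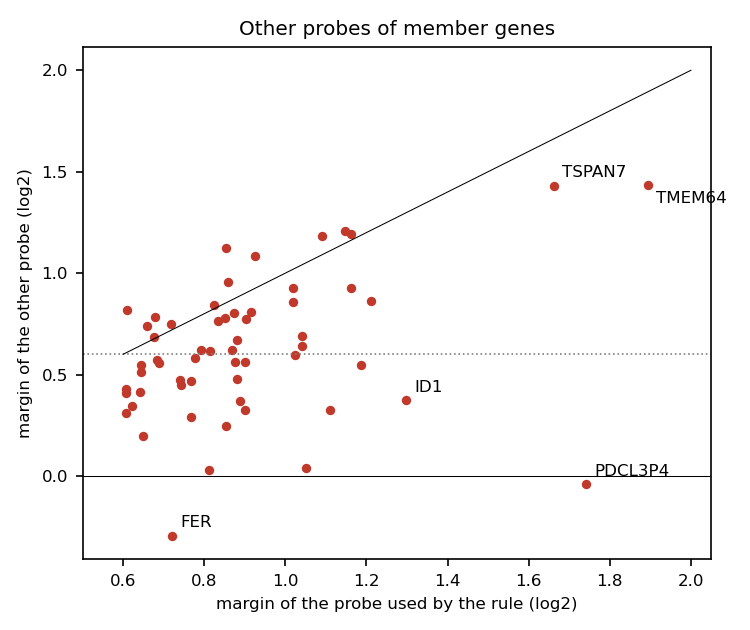
Margin of the other probe (y axis, log2) against the margin of the probe used by the rule (x axis, log2) for 58 probes of 50 member genes; the dotted line marks 0.6 and the diagonal equality. All but the probes of PDCL3P4 and FER lie above 0, and TMEM64 and TSPAN7 have the largest margins on the y axis.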

How the data were processed

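The deposited intensity table gives, for 47323 probes, each array's linear bead intensity and its detection p-value, per the file headers. The deposited log2 table holds 20127 probes, those detected on at least 4 arrays, and equals the quantile-normalized log2 of these intensities (largest difference 0.0012), with no background subtraction. BeadStudio was used, per the submitters' processing notes; no version or genome build is given in the sources here. The annotation gave 15592 probes 1 symbol and 4 several; 4531 were without one, and 47 of these met the rule. The rule and all levels use the deposited log2 values, except the summed list intensities, which use background-corrected values.

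For the tests, limma 3.58.1 in R 4.3.3 ran neqc (normexp background correction, offset 16, quantile normalization), then lmFit and eBayes on all 9 arrays with Benjamini-Hochberg adjustment over 11991 genes, on probes detected on at least 3 arrays. The script was tested on simulated data. The number of arrays limits precision. Named were the 3 markers, the 20 largest margins, members on lists, the 10 largest called differences, threshold neighbours and contrary probes. Members and lists were chosen with earlier results of these data known. Same-numbered arrays deviated with correlations of −0.12 to 0.06, and differently numbered arrays with −0.11 to 0.16. This shows no sign of pairing by number. It cannot exclude pairing, because near-identical arrays leave little deviation in which it could show. Alternatives varied values, normalization, filters, thresholds and arrays.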

Additional observations from a re-analysis of the deposited data

How the results depend on the processing

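The rule gave 384 genes on background-corrected values, 311 at a difference of 0.5, 92 at 0.8 and 50 at 1, and 186 to 220 with 1 array left out. Members lower in progenitors than in hESC numbered 107, against 63 on deposited values; with 1 array left out they were 104 to 108. Members higher numbered 0, against 2 with array weights, 5 with no fold threshold, 2 without both arrays that stand apart (chosen after seeing the data), and 0 to 2 with 1 array left out. Over all genes, progenitors against hESC gave 2286 lower, against 1357 on deposited values, 1513 without background correction and 4500 with no fold threshold, and 1759 higher, against 3709 with no fold threshold. Embryoid bodies against hESC gave 180 higher and 191 lower, against 77 and 74 on deposited values, 93 and 498 with median scaling, which shifted the median of all genes to −0.28, and 0 and 0 with near-identical arrays averaged (976 genes at an unadjusted p under 0.05 by limma, on 2 residual degrees of freedom). Embryoid bodies against progenitors gave 2262 higher and 1838 lower, against 1370 higher on deposited values. With no fold threshold embryoid bodies against progenitors gave 4533 higher and 3744 lower, and against hESC 1278 and 1319. For these changed counts the cause was not tested, beyond the fewer columns after averaging and the looser or stricter thresholds. The replicate block left 107 members lower and 0 higher. Of 378 alternative values of 21 named members, 366 kept their call, 12 lost it and 0 reversed. These 21 were all taken from members called in the main fit, the 10 largest differences among them, which favours keeping a call. Named members that were not called are not in this count. Signal over background limits the bounds given for undetected probes.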
